A study of Mus musculus with 30 samples.

Results

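CD8 T cells were compared with CD4 T cells sorted from the spleens of the same 3 wild type C57BL/6 mice. The members are the 6 libraries whose titles name wild type spleen cells, 3 of each population, out of 30 libraries in the series. The series holds bulk RNA sequencing of sorted T cell populations from thymus and spleen of wild type mice and of Prmt5 conditional knockout mice, whose genotype is given as CD4-Cre+ PRMT5fl/fl on C57BL/6. In such mice the Cd4 promoter drives Cre, which acts from the thymus onward in cells that become either population. The animals are numbered 67, 70 and 71, and each gave 1 CD4 and 1 CD8 library, so the comparison is paired within animals. The label "wild type" does not say whether these mice carried the Cre transgene or the floxed allele, and the sex and age of the mice are not stated in the labels. Values for each library are given in that order of animals throughout, in CPM (counts of a gene relative to all counts of its library, on the usual CPM scale) after scaling for library composition. The second genotype, with CD8 and CD4 libraries from the spleens of knockout animals 65, 68 and 72, is used below for a single comparison of the difference.

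CD4 and CD8 are coreceptors that bind MHC class II and class I molecules and so steer helper and cytotoxic T cells to different targets. In the thymus, ThPOK, encoded by Zbtb7b, maintains the CD4 lineage, and Runx3 silences Cd4 and maintains the CD8 lineage. In the spleen, both populations are mostly resting cells that recirculate through lymphoid tissue. The CD4 population also holds regulatory cells, which restrain immune responses, and follicular helper cells, which aid B cells. The CD8 population holds memory-like cells that store killing molecules.

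Cd4, Cd8a and Cd8b1, the genes of the sorted surface proteins, checked the labels. Cd8a (chr6:71373427-71379171, GRCm38.p6) was at 2.28, 4.56 and 2.76 CPM in the CD4 libraries and at 1242, 1161 and 1097 CPM in the CD8 libraries. Its neighbour Cd8b1 (chr6:71322788-71337492) was at 8.41, 9.57 and 9.14 CPM in CD4 and 846, 771 and 721 CPM in CD8. Neither gene overlapped between populations, and the labels held in every library. Cd4 (chr6:124864693-124888247) was at 860.3, 849 and 856 CPM in the CD4 libraries and at 1.84, 1.94 and 13.6 CPM in the CD8 libraries. The CD8 library of animal 71 therefore held more Cd4 reads than the other two. Without animal 71 the log2 difference of Cd4 was -8.82, against -7.35 ± 0.39 (standard error, SE) with all 3 animals. Among the 267 genes that were higher in CD4 by 8-fold or more, the CD8 library of animal 71 was the highest of the CD8 libraries for 92, that of animal 70 for 97 and that of animal 67 for 78.

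**Figure D1:**
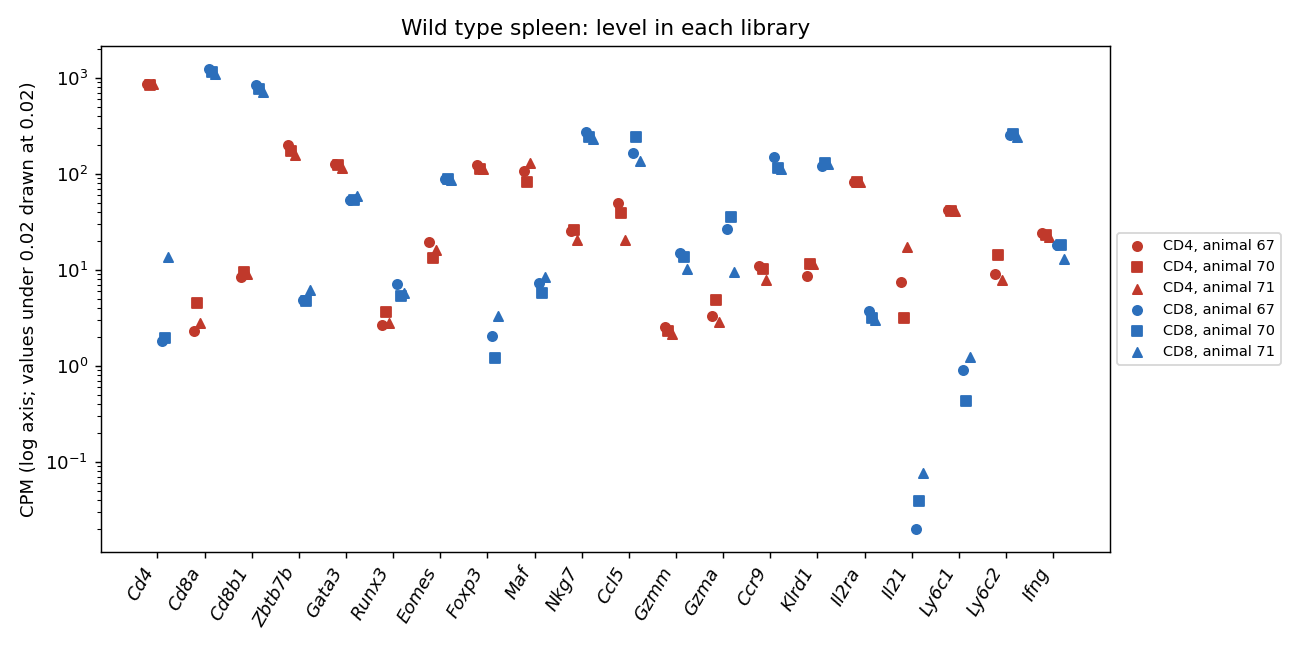
Level of 20 genes in each of the 6 libraries, in CPM on a log axis, with CD4 libraries in red, CD8 libraries in blue and a marker shape for each animal. Cd4, Zbtb7b, Foxp3 and Il21 are lower and Cd8a, Nkg7, Ccr9 and Ly6c2 higher in all 3 CD8 libraries, and the CD8 library of animal 71 has the highest Cd4 of its group at 13.6 CPM.

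Of 13 tested genes of shared T cell identity, 4 were higher in CD8, 5 higher in CD4 and 4 not called (median -0.07). Cd3e, a chain of the T cell receptor complex, was at 483, 439 and 465 CPM in CD4 and 552, 509 and 511 CPM in CD8, and Thy1, a pan T cell surface protein, at 433, 400.3 and 433 and 727, 629.8 and 623 CPM. Markers of other cell types were present at levels that differed between lists. The 13 B cell markers, of which 11 were tested, summed to 37.2 to 39.8 CPM in the CD4 libraries. In the CD8 libraries they summed to 36.3 to 48.8 CPM. Ighm was listed at 0 in all 6 libraries, as were the T cell receptor constant genes Trbc1 and Trbc2. The 0 of Ighm is therefore not read as absence. Of 13 tested myeloid markers, 11 were higher in CD4 and none in CD8, with a median log2 difference of -2.22. The whole list summed to 140.2 to 202 CPM in CD4 and 31.1 to 48.2 CPM in CD8, with the granulocyte genes Ly6g and Retnlg at 0 in all 6 libraries. Csf1r, the receptor of macrophages for their growth factor, was at 30.9, 21 and 18.8 CPM in CD4 and 5.28, 5.96 and 2.58 CPM in CD8. C1qb, a complement gene of macrophages, was at 9.82, 6.46 and 7.92 and 1.5, 0.387 and 0.615 CPM. The myeloid markers move with the lists that were higher in CD4 (the regulatory, follicular helper, helper and costimulatory lists, and myeloid genes outside this list), and their part in those results was not tested. Of 6 tested NK cell markers, 4 (Tyrobp, Fcer1g, Klrb1c and Fcgr3) were higher in CD4, Gzma was higher in CD8 and Ncr1 was not called (median -1.05). That list summed to 22.5 to 23.9 CPM in CD4 and 16.3 to 43.8 CPM in CD8, and Ncr1, which defines NK cells, was at 1.03, 1.06 and 0.737 CPM in CD4 and 0.675, 0.581 and 0.269 CPM in CD8. Tyrobp was not called by DESeq2 (adjusted p = 0.0688). Of 10 dendritic cell and MHC class II markers, 3 could be tested. Cd74, the invariant chain, was higher in CD4 (48.9, 43.8 and 39.95 CPM against 19.8, 21 and 15.8 CPM, -1.23 ± 0.08), as was Zbtb46 (-1.91 ± 0.55), and Itgax was higher in CD8 (list median -1.23, with sums of 44.7 to 53.6 CPM in CD4 and 27.6 to 45.3 CPM in CD8). Zbtb46 was not called by DESeq2 (adjusted p = 0.13) or without animal 71 (adjusted p = 0.0832).

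Of 46095 genes in the table, 14131 had enough reads to be tested. A gene was called at an adjusted p under 0.05 from edgeR's quasi-likelihood test with the animal as a block and Benjamini-Hochberg adjustment over all genes tested, and every adjusted p for the wild type comparison is from that fit. The test called 2416 genes higher in CD8 (17.1% of genes tested) and 2561 higher in CD4 (18.1%), which is 35.2% in all. All counts over gene lists in this text are to be read against these shares. The median log2 difference over all genes tested was 0.01. Changes of 2-fold or more were fewer in the CD8 direction, with 408 called genes (2.89%), than in the CD4 direction, with 1013 (7.17%). At 8-fold or more there were 72 and 267. The libraries of the populations did not overlap for 6442 genes (45.6% of genes tested) and for 4674 of the 4977 called genes. Within animals, 2403 of the 2416 genes higher in CD8 and 2548 of the 2561 higher in CD4 had that sign in all 3. In bulk RNA, fewer cells of a type and less RNA per cell cannot be told apart, and this holds for every difference below.

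**Figure D2:**
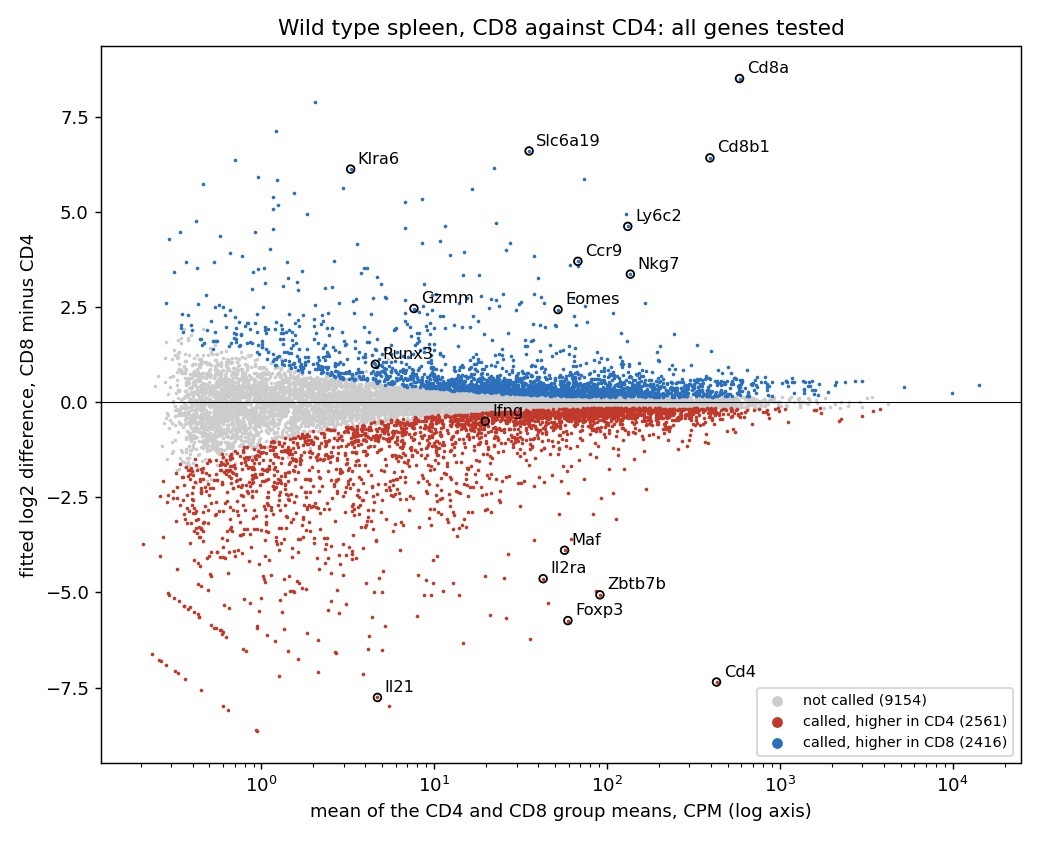
Fitted log2 difference (CD8 minus CD4) of all 14131 genes tested against the mean level of the populations in CPM on a log axis, with called genes in colour and 17 genes named. The cloud reaches further below 0 than above it at low levels, and Cd8a (8.51) and Cd4 (-7.35) are among the most distant genes at high levels.

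The genes with the largest fold toward CD8, after the coreceptor genes, included transporters, enzymes and receptors as well as killer cell genes. Slc6a19, a transporter of neutral amino acids, was at 0.837, 0.874 and 0.442 CPM in CD4 and 74.2, 74.5 and 61.7 CPM in CD8, a log2 difference of 6.61 ± 0.13 (adjusted p = 9.77e-12). Bend4, which encodes a protein with a BEN domain, was at 1.75, 2.43 and 3.28 and 118, 145 and 173 CPM (5.87 ± 0.09). The adhesion G protein-coupled receptor gene Adgrg5 was the most abundant of these apart from the coreceptors, at 8.94, 8.05 and 7.11 CPM in CD4 and 239.7, 231 and 277 CPM in CD8 (4.95 ± 0.09). Genes of this ranking were chosen to have no overlap between the populations. Eng, endoglin, a coreceptor for TGF-beta family ligands, was at 1.79, 2.17 and 1.11 CPM in CD4 and 42.1, 46.7 and 43.8 CPM in CD8. Haao, an enzyme of tryptophan breakdown, was at 0.685, 0.874 and 0.442 and 27.4, 37.6 and 32.4 CPM. The other genes that this ranking named were Klra6, Wdr95, Dmrta1, Gria3 and Lcn4, with log2 differences from 4.64 to 6.13 and no more than 1.22 CPM in any CD4 library. Among abundant genes (at least 50 CPM in the higher population), the smallest p-values toward CD8 after those already named were those of Nkg7, Ccr9, Klrd1, Nedd4, Rcn3 and Ly6c2. Nedd4, a ubiquitin ligase, was at 17.7, 16.1 and 15.6 CPM in CD4 and 116, 106 and 111 CPM in CD8 (2.75 ± 0.06). Rcn3, a calcium-binding protein of the secretory pathway, was at 3.35, 2.47 and 2.73 and 57.8, 47.2 and 51 CPM (4.19 ± 0.10).

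Toward CD4, the largest folds belonged to genes that were nearly absent from CD8 libraries. Il1rl1, the receptor for interleukin 33, was at 9.74, 13.4 and 9.44 CPM in CD4 and 0, 0.0387 and 0.0769 CPM in CD8. Those are 864 reads against 3, a ratio of 284 with a 95% exact counting interval of 96.7 to 1377. Il21, a cytokine of follicular helper cells, gave 752 reads against 3, a ratio of 247 with an interval of 84.1 to 1199. Both intervals cover counting error only. Lrrc32, which displays latent TGF-beta on regulatory T cells, was at 64.3, 68.6 and 78.4 CPM in CD4 and 1.01, 0.581 and 1.23 CPM in CD8 (-6.22 ± 0.14, adjusted p = 2.08e-11). Pdlim4, a cytoskeletal adaptor, was at 27.9, 34.4 and 24.5 and 0.375, 0.348 and 0.346 CPM. Penk, the precursor of enkephalin peptides, was at 7.08, 12 and 11.5 and 0.412, 0.0387 and 0.0385 CPM. The lack of overlap was again part of the choice. Sostdc1, Arnt2, Fam160a1, Ptpn5, Ncmap and Itgb8 completed the ranking, with log2 differences from -7.14 to -6.13 and at most 0.269 CPM in any CD8 library. Of the abundant genes with the smallest p-values, Tmem64 was at 159, 193 and 195 CPM in CD4 and 31, 37.4 and 36.2 CPM in CD8 (-2.38 ± 0.06). Tiam1, an activator of the GTPase Rac, was at 57.8, 67.5 and 83.4 and 4.23, 5.42 and 7.31 CPM (-3.63 ± 0.09). The others were Maf, Il2ra, Zbtb7b and Itgb3.

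Transcription factors of the lineage choice and of resting T cells were measured in 21 genes, of which 5 were higher in CD8, 9 higher in CD4 and 7 were not called (median -0.12). Zbtb7b was at 199.5, 172 and 158 CPM in CD4 and 4.91, 4.68 and 6.23 CPM in CD8, a log2 difference of -5.06 ± 0.11 (adjusted p = 1.66e-11). It differed by 33.4-fold, the most of the 21 genes. Runx3 was low in both populations, at 2.66, 3.65 and 2.8 CPM in CD4 and 7.2, 5.38 and 5.69 CPM in CD8. The groups did not overlap, and its log2 difference was 1.0 ± 0.21 (adjusted p = 0.00246). Gata3, a factor of CD4 commitment and of type 2 helper cells, was at 127, 123 and 116 CPM in CD4 and 53.9, 53.2 and 59.1 CPM in CD8 (-1.14 ± 0.06). Runx1 was also higher in CD4, at 141, 155 and 155 against 61.4, 62.1 and 73.7 CPM (-1.20 ± 0.06). Tox, which is needed for the CD4 lineage in the thymus, differed less (-0.48 ± 0.06, adjusted p = 5.22e-05). Klf2, which drives expression of exit and homing receptors in resting T cells, was at 311, 283 and 348 CPM in CD4 and 602, 531 and 559 CPM in CD8 (0.85 ± 0.06). Myb was higher in CD8 too (0.58 ± 0.05). Tcf7 and Lef1, factors of naive and memory T cells, were not called, with log2 differences of -0.13 ± 0.06 (adjusted p = 0.117) and 0.09 ± 0.05 (adjusted p = 0.237). Without animal 71 Tcf7 was called at -0.19 (adjusted p = 0.0075).

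Effector transcription factors divided, with 4 of 12 tested higher in CD8 and 8 higher in CD4 (median -0.48). Eomes, a T-box factor of memory and cytotoxic cells, was at 19.6, 13.2 and 16.2 CPM in CD4 and 88.4, 88.1 and 86.9 CPM in CD8. Its CD8 libraries lay within 2 CPM of each other, and the log2 difference was 2.44 ± 0.09 (adjusted p = 2.59e-09). Tbx21, the related factor T-bet, differed much less, at 18.8, 20.9 and 19.3 against 25.2, 33.1 and 26.1 CPM (0.51 ± 0.09). Zeb2, a factor of terminal effector cells, was at 5.21, 6.84 and 5.57 CPM in CD4 and 12.7, 19.1 and 7.81 CPM in CD8 (1.10 ± 0.18). Bhlhe40, which supports cytokine production, was at 185, 195 and 251 CPM in CD4 and 63.4, 95.1 and 68.9 CPM in CD8 (-1.48 ± 0.11). Prdm1, encoding Blimp-1, was at 24.4, 23.5 and 24.1 and 10.6, 12.1 and 7.92 CPM (-1.25 ± 0.12). Its relative Zfp683, encoding Hobit, was also higher in CD4, at 12.7, 13 and 10.9 and 4.65, 4.38 and 4.89 CPM (-1.39 ± 0.14). Rora, Irf4, Batf, Irf8 and Nfil3 were higher in CD4 as well, with log2 differences from -1.44 to -0.33.

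Cytotoxic genes were higher in CD8 for 14 of 22 tested, higher in CD4 for 4 and not called for 4 (median 0.92). Nkg7, a granule membrane protein of killer cells, was at 25.5, 26.3 and 20.5 CPM in CD4 and 274, 243 and 229.8 CPM in CD8, a log2 difference of 3.37 ± 0.07 (adjusted p = 1.07e-11). Ctsw, a protease of killer cells, was the most abundant of the strongly differing members, at 42, 54.5 and 43.3 and 286, 294 and 275 CPM (2.62 ± 0.07). The chemokine gene Ccl5 was at 49.8, 39.2 and 20.3 CPM in CD4 and 164, 242 and 136 CPM in CD8 (2.34 ± 0.15). All 3 were separated in every library, and Ccl5 varied most between animals. Prf1, the pore-forming protein perforin, was at 17.7, 17.1 and 18.5 CPM in CD4 and 57.3, 50.8 and 56 CPM in CD8 (1.62 ± 0.07). The granzyme genes, whose proteases enter through that pore, were low. Gzmm was at 2.51, 2.32 and 2.14 CPM in CD4 and 15.1, 13.6 and 10.2 CPM in CD8 (2.47 ± 0.16). Gzma was at 3.27, 4.86 and 2.84 and 26.7, 35.9 and 9.42 CPM (2.61 ± 0.20). Gzmb was at 5.67, 3.23 and 3.17 and 17.5, 20.8 and 6.35 CPM (1.80 ± 0.24). For Gzma and Gzmb the CD8 library of animal 71 was the lowest of its group, and it still exceeded all CD4 libraries. Gzmk overlapped between populations, at 4.98, 1.9 and 3.17 CPM in CD4 and 5.17, 9.95 and 4.69 CPM in CD8. Its call (log2 0.96 ± 0.34, adjusted p = 0.0476) ended without animal 70, where the log2 difference was 0.30 (adjusted p = 0.444), and also with DESeq2 (adjusted p = 0.336), with its size factors (0.052) and with the 5 CPM filter (0.0543).

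The 4 members higher in CD4 were Ifng, Fasl, Stx11 and Rab27a. Ifng, the main cytokine of type 1 responses, was at 24, 23 and 22.1 CPM in CD4 and 18.1, 18.3 and 13 CPM in CD8. Every CD4 library was above every CD8 library, and the log2 difference was -0.49 ± 0.10 (adjusted p = 0.00274). Fasl, the ligand of the death receptor Fas, was at 24.3, 29.3 and 28.1 CPM in CD4 and 17.4, 20.6 and 13.6 CPM in CD8 (-0.67 ± 0.11). Stx11, a protein of granule fusion, was at 23.2, 27.9 and 44.8 and 6.15, 5.77 and 5.15 CPM (-2.44 ± 0.18). Rab27a, which tethers granules, differed by -0.59 ± 0.05. Srgn, Lamp1, Unc13d and Ccl3 were not called, with log2 differences from -0.12 to 0.18.

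Upstream windows of 250 bases were searched for the 3 members of largest fold in each direction that had one, from the lists named below. Nkg7 was among those toward CD8, and its window holds matches to RUNX and T-box letters. The letters searched for RUNX factors, on both strands, were TGTGGT. Those for T-box factors, the family of Eomes and T-bet, were GGTGTGA. For GATA factors such as Gata3 the letters AGATAA were used. The matches in the Nkg7 window do not overlap each other. The printed 185 bases (chr7:43436888-43437072, plus strand, RefSeq, GRCm38.p6) end where the first annotated exon of any transcript begins, and capitals mark the RUNX match on the opposite strand.
Nkg7 upstream: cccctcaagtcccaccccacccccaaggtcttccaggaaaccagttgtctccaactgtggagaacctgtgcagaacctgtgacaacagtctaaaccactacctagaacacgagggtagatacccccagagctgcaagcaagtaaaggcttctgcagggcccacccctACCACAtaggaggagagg
The T-box match lies in the rest of the window, which is not printed because an annotated exon begins there. The stretches upstream of Klra6 (chr6:130026961-130027204, minus strand) and Il21 (chr3:37232637-37232886, minus strand) are shown as those of the genes with the largest fold toward CD8 and toward CD4 among members at 5 CPM or more of the lineage, effector, cytotoxic, killer receptor, regulatory, follicular and helper lists, and their windows hold none of the 3 motifs.
Klra6 upstream: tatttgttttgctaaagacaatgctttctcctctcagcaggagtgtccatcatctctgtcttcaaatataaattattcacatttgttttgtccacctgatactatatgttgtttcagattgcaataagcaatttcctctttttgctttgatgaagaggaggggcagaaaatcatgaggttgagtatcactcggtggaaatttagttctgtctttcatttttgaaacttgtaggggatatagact
Il21 upstream: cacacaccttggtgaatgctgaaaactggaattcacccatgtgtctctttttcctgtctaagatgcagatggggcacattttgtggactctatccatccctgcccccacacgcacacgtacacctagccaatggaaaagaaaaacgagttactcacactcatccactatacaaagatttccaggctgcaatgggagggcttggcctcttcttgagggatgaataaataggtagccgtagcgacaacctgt
Of the other windows searched for list members of large fold, that of Klra7 holds AGATAA and those of Foxp3 and Zbtb7b hold none of the 3. A match is a description of letters and not a binding site. Over the first promoter of each gene, TGTGGT was present in 14.2% of all 27025 windows of 250 bases, in 11.5% of the 9725 windows of genes tested, in 56 of 294 windows (19%) of genes higher in CD8 by 2-fold or more and in 89 of 712 (12.5%) of genes higher in CD4 by 2-fold or more. For GGTGTGA the shares were 3.31%, 2.9%, 3.74% and 3.09%, and for AGATAA they were 10.3%, 6.06%, 11.2% and 6.46%. No test was made of these shares.

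Receptors shared with natural killer cells were the list with the highest median of all lists with 6 or more tested genes (1.86): 16 of 23 tested were higher in CD8, 3 higher in CD4 and 4 were not called. Klrd1, encoding CD94, was at 8.64, 11.4 and 11.6 CPM in CD4 and 119.7, 131 and 127 CPM in CD8, a log2 difference of 3.58 ± 0.08 (adjusted p = 2.08e-11). Klrc1, its partner NKG2A in an inhibitory receptor, was at 2.97, 1.37 and 3.76 and 14.8, 13.8 and 12.3 CPM (2.38 ± 0.24). Crtam, an adhesion receptor, was at 9.63, 8.47 and 10.03 CPM in CD4 and 52, 48.1 and 51 CPM in CD8 (2.43 ± 0.08). These 3 genes did not overlap between the populations. Klrk1, the activating receptor NKG2D, differed less, at 7.57, 11.7 and 9.8 against 19, 24.1 and 14.7 CPM (0.98 ± 0.14). Cd160 was at 8.14, 6.31 and 7.33 CPM in CD4 and 22.7, 20.6 and 17.4 CPM in CD8 (1.48 ± 0.12), and Cd226 at 95.9, 95.6 and 82 and 178, 188 and 164 CPM (0.96 ± 0.05). The Ly49 genes Klra1, Klra3, Klra6, Klra7, Klra9 and Klra10 were all called higher in CD8 and reached at most 9.35 CPM. Klra7, an inhibitory receptor for MHC class I, was at 0.647, 0.57 and 0.7 CPM in CD4 and 8.28, 5.11 and 9.35 CPM in CD8, and Klra6 at 0, 0.19 and 0.0737 and 6.67, 5.73 and 7.04 CPM. Ly49 and Klrc genes are close copies of each other, and reads could be split between them, so single members are uncertain. Against the direction of the list, Klrg1, a receptor of terminal effector cells, was at 7.15, 8.05 and 5.82 CPM in CD4 and 3.45, 6.66 and 1.54 CPM in CD8, which overlapped. Its log2 difference was -1.0 ± 0.25 (adjusted p = 0.00902), and the call ended without the animal block (adjusted p = 0.101). Klrb1c, encoding NK1.1, was higher in CD4 as well (9.36, 10.8 and 12.1 against 5.85, 3.29 and 3.19 CPM, -1.41 ± 0.22).

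Regulatory T cell genes were higher in CD4 for 18 of 19 tested (median -2.37), and the groups did not overlap for any of the 19, against 45.6% of all genes tested without overlap. Foxp3, the defining transcription factor, was at 124, 114 and 112 CPM in CD4 and 2.02, 1.2 and 3.35 CPM in CD8, a log2 difference of -5.74 ± 0.17 (adjusted p = 1.94e-10). The CD8 library of animal 71 was the highest of its group, and without that animal the log2 difference was -6.20. Il2ra, the high-affinity subunit of the interleukin 2 receptor, was at 82.9, 81.8 and 81.6 CPM in CD4 and 3.71, 3.14 and 3.04 CPM in CD8 (-4.64 ± 0.09). Ikzf2, encoding Helios, was at 268, 247 and 322 CPM in CD4 and 56.4, 47.8 and 69.7 CPM in CD8 (-2.27 ± 0.06). The checkpoint receptor gene Ctla4 had 33.5, 37.4 and 36.7 CPM in CD8 against 94.7, 96 and 118 CPM in CD4 (-1.51 ± 0.07). Nrp1 was at 98.2, 111 and 131 CPM in CD4 and 7.42, 12.4 and 8.62 CPM in CD8, and Tnfrsf18, encoding GITR, at 56.8, 64.4 and 71.4 and 33.6, 30.5 and 30.8 CPM. Thus the members spanned log2 differences from -6.22 (Lrrc32) to -0.37 (Nt5e) on the CD4 side. The exception was Itgae, the alpha chain of the integrin CD103 that binds E-cadherin, at 7.0, 12 and 8.96 CPM in CD4 and 107, 128 and 105 CPM in CD8 (3.61 ± 0.09). Itgae is expressed by regulatory T cells and also by CD8 T cells.

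Follicular helper genes were higher in CD4 for 11 of 13 tested, and none was higher in CD8 (median -1.88). Maf, a factor that drives interleukin 21 and interleukin 4, was at 107, 82.2 and 131 CPM in CD4 and 7.35, 5.77 and 8.35 CPM in CD8 (-3.89 ± 0.07, adjusted p = 9.27e-12). Il21 itself was at 7.53, 3.15 and 17.4 CPM in CD4 and 0, 0.0387 and 0.0769 CPM in CD8. Tox2 was at 17.1, 13.5 and 26.2 CPM in CD4 and 0.525, 0.968 and 0.539 CPM in CD8 (-4.76 ± 0.26). The CD4 library of animal 71 was the highest and that of animal 70 the lowest for Maf, Il21 and Tox2. Pdcd1, encoding the inhibitory receptor PD-1, was at 23.1, 23.7 and 40.7 CPM in CD4 and 2.74, 4.57 and 4.46 CPM in CD8 (-2.88 ± 0.15). Cxcr5, the receptor that leads cells to B cell follicles, was at 21.4, 23.2 and 36.4 and 12, 12.4 and 14.8 CPM (-1.02 ± 0.11). Bcl6, the repressor that defines the follicular fate, was at 33.8, 33.6 and 47.7 and 21.1, 16.2 and 27.5 CPM (-0.84 ± 0.09). Sh2d1a and Pou2af1 were not called (-0.22 ± 0.08 and 0.19 ± 0.09).

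**Figure D3:**
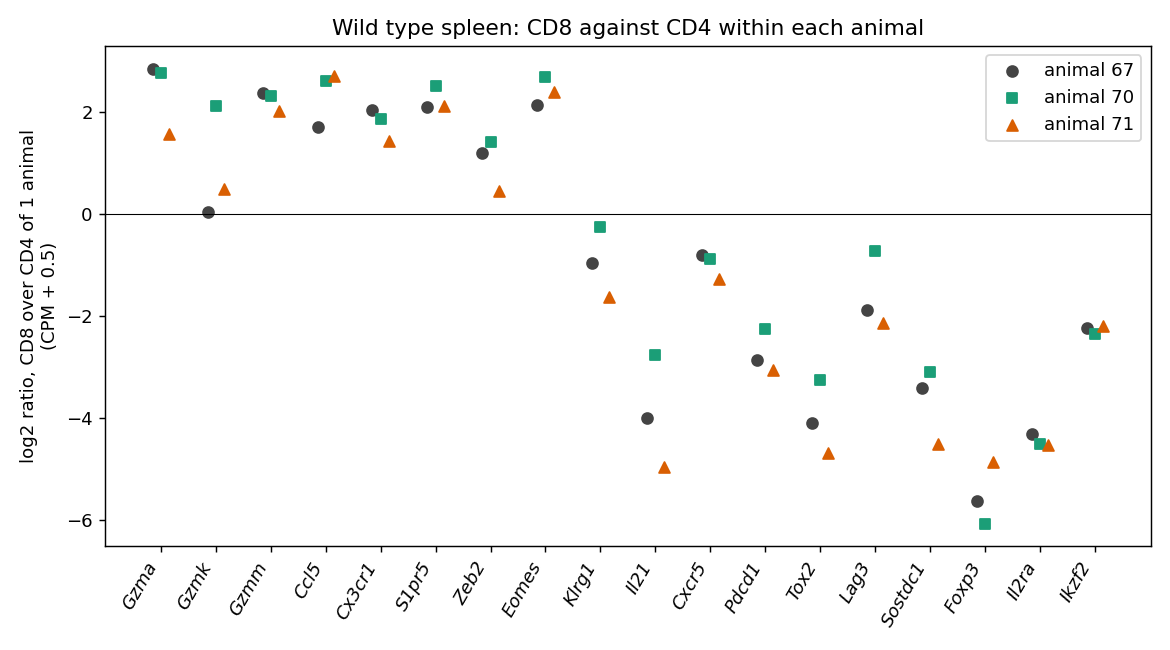
Log2 ratio of CD8 over CD4 within each of the 3 animals for 18 genes, with 0.5 CPM added to both levels. Il2ra is at -4.31, -4.50 and -4.54 and Ikzf2 at -2.24, -2.36 and -2.20 in animals 67, 70 and 71, whereas Il21 is at -4.01, -2.76 and -4.95 and Gzmk at 0.05, 2.12 and 0.50.

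Helper cytokine and helper factor genes were higher in CD4 for 10 of 11 tested, with 1 not called. Their median log2 difference was -2.88, or -2.17 with Il4 at its lower bound, where Il4 itself is the middle gene. Cd40lg, the helper ligand that licenses B cells and dendritic cells, was at 107, 78.9 and 81.7 CPM in CD4 and 1.42, 2.01 and 3.5 CPM in CD8, a log2 difference of -5.27 ± 0.19 (adjusted p = 1.6e-09). Il4 had 0.419, 0.608 and 0.516 CPM in CD4 and no reads in CD8, so it was at least 4.49-fold higher against a floor of 3 reads in each CD8 library. The chemokine receptors of helper subsets followed: Ccr8 was at 12.6, 17.4 and 22 CPM in CD4 and at most 0.769 CPM in CD8. Ccr4 was at 14.6, 25.1 and 16.4 and 0.45, 1.36 and 1.42 CPM (-4.13 ± 0.22), and Ccr6 at 5.17, 9.23 and 4.53 and 0.225, 0.658 and 0.231 CPM (-4.11 ± 0.27). Animal 70 had the highest Ccr4 and Ccr6 of the CD4 libraries. Il2, Il13, Il17a, Il22 and Csf2 were too low to test, with Il2 and Il17a highest at 0.874 CPM in the CD4 library of animal 70, and Il3, Il5, Lta and Ltb were listed at 0 in all 6 libraries.

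Costimulatory and inhibitory receptors were higher in CD4 for 18 of 23 tested and higher in CD8 for 3 (median -1.02). Tnfrsf4, encoding OX40, was at 45.5, 51.8 and 65.2 CPM in CD4 and 6.82, 9.99 and 7.58 CPM in CD8 (-2.73 ± 0.12). Tnfrsf25, the receptor DR3, was at 60.4, 69.3 and 62.8 and 15.3, 19.1 and 14.8 CPM (-1.97 ± 0.08). Cd5, a negative regulator whose level follows the strength of receptor signalling, was at 411, 382 and 407 CPM in CD4 and 186, 178 and 179.6 CPM in CD8 (-1.14 ± 0.05). None of the 3 overlapped. Icos was at 48.1, 53.1 and 58.2 and 26.9, 33.5 and 31.4 CPM (-0.80 ± 0.07), and Cd28 at 176, 157 and 158 and 115, 119 and 136 CPM (-0.41 ± 0.07). Lag3, an inhibitory receptor for MHC class II, was at 23.8, 14.2 and 37.6 CPM in CD4 and 6.07, 8.4 and 8.12 CPM in CD8 (-1.66 ± 0.21). Its CD4 libraries were lowest in animal 70 and highest in animal 71. Cd27 was not called (0.07 ± 0.06). The members higher in CD8 were Cd226, Cd86 and Cd96, with log2 differences of 0.96 ± 0.05, 0.84 ± 0.12 and 0.37 ± 0.05.

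**Figure D4:**
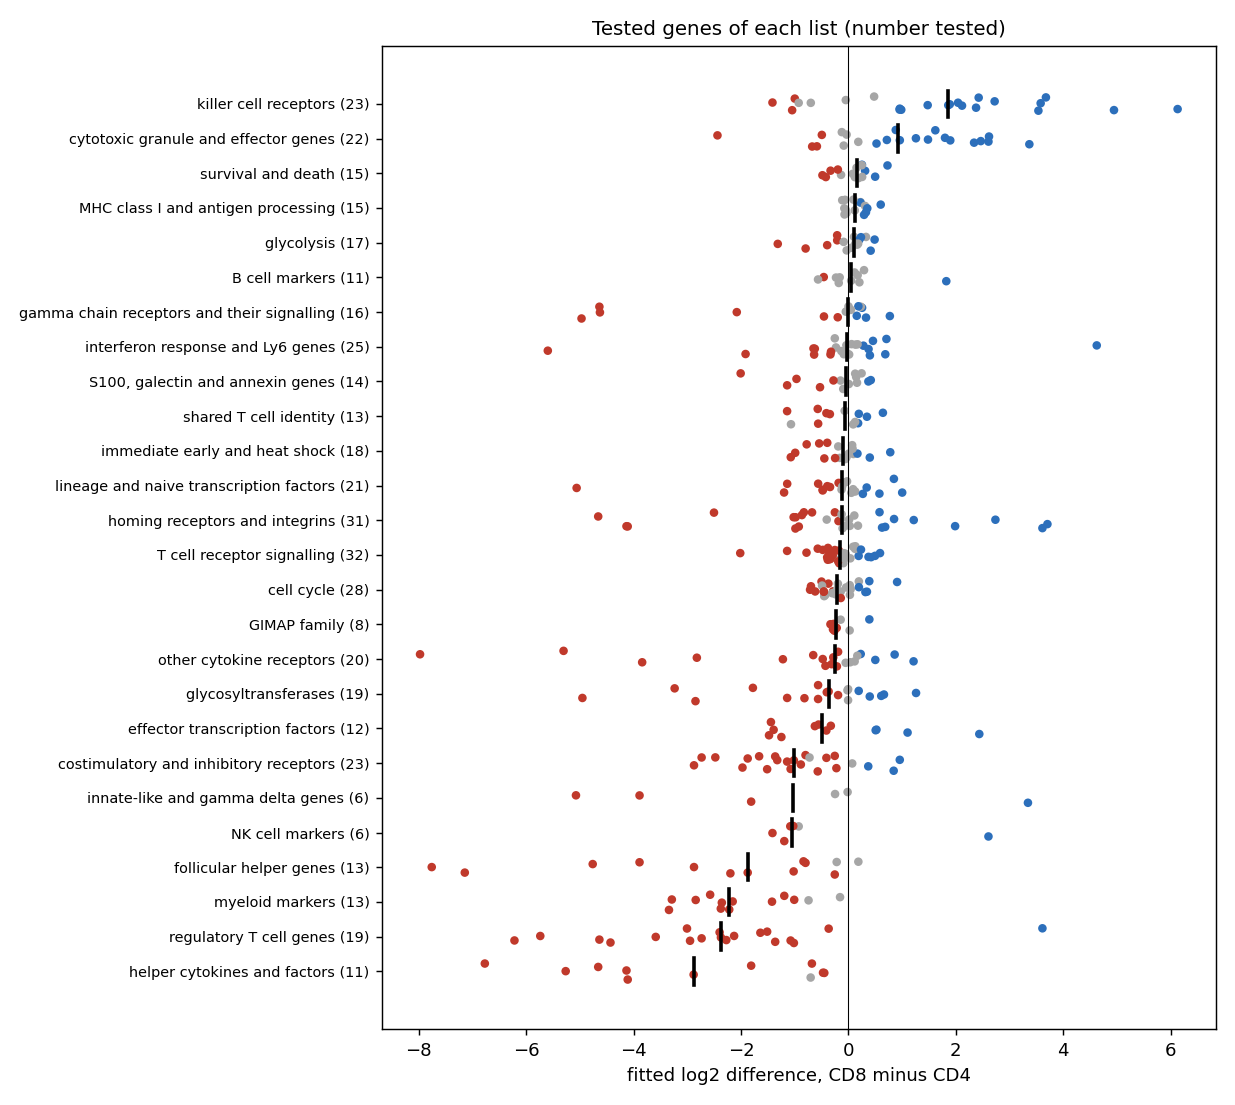
Fitted log2 difference of every tested gene, grouped by list and ordered by the list median (black bar), for lists with 6 or more tested genes, with the number tested in brackets. Blue points were called higher in CD8, red points higher in CD4 and grey points were not called. Killer cell receptors have the highest median (1.86), and the helper (-2.88, or -2.17 with Il4 at its bound), regulatory (-2.37) and myeloid (-2.22) lists have the lowest.

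Il2rb, the subunit shared by the interleukin 2 and interleukin 15 receptors, was higher in CD8 (359, 406 and 391 CPM in CD4 against 619, 682 and 674 CPM in CD8, 0.77 ± 0.05, adjusted p = 3.15e-07), opposite to Il2ra. Il2rg, the common gamma chain, differed little, at 624, 582 and 620.4 and 704, 657 and 673 CPM (0.16 ± 0.05). Over the gamma chain list, 5 of 16 were higher in CD8, 6 higher in CD4 and 5 not called (median -0.01). Il7r, the survival receptor of resting T cells, was at 469.5, 568 and 535 CPM in CD4 and 579, 669 and 626 CPM in CD8 (0.25 ± 0.05, adjusted p = 0.00243). Without animal 70 it was not called (adjusted p = 0.0576). Il9r was at 17.8, 24.2 and 23.3 CPM in CD4 and 0.225, 0.774 and 1.12 CPM in CD8 (-4.97 ± 0.23). The feedback inhibitors Socs2 and Cish, which STAT5 induces, were higher in CD4, at 9.4, 9.91 and 8.33 against 0.262, 0.503 and 0.346 CPM and 47.6, 55.2 and 57.4 against 9.89, 10.8 and 18.1 CPM. Il4ra was not called, at 429, 427 and 430.1 and 407, 418 and 465 CPM (log2 0.00 ± 0.06). Of 20 other cytokine receptor genes, 12 were higher in CD4, 4 higher in CD8 and 4 not called (median -0.25). Il18r1 and Il18rap, the chains of the interleukin 18 receptor, were both higher in CD8 (0.50 ± 0.07 and 1.21 ± 0.07), and so was Ifngr1 (188, 189.6 and 206 against 347, 331 and 383 CPM, 0.86 ± 0.05). Ifngr2, the second chain of that receptor, was higher in CD4 (-0.28 ± 0.05), with overlapping groups. Il6ra was at 291, 309.6 and 256 CPM in CD4 and 185, 174 and 184 CPM in CD8 (-0.65 ± 0.07). The TGF-beta receptor genes Tgfbr1, Tgfbr2 and Tgfbr3 were all higher in CD4, with log2 differences of -0.48 ± 0.05, -0.21 ± 0.06 and -1.22 ± 0.06, and Tgfbr2 was not called without animal 70 (adjusted p = 0.14).

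Homing receptors and integrins gave 9 of 31 higher in CD8, 13 higher in CD4 and 9 not called (median -0.13). Ccr9, the receptor for the gut and thymus chemokine CCL25, was at 11, 10.1 and 7.78 CPM in CD4 and 149.6, 115 and 113 CPM in CD8 (3.71 ± 0.08, adjusted p = 1.93e-11). Ccr7, a chemokine receptor that admits cells to lymph nodes, was at 417, 454 and 588 CPM in CD4 and 689, 658 and 819.8 CPM in CD8 (0.58 ± 0.06), with no overlap. S1pr1, the exit receptor, was not called, at 661, 707 and 743 CPM in CD4 and 681, 703 and 746 CPM in CD8 (0.01 ± 0.05). Itgb7, the beta chain that pairs with Itgae and Itga4, was not called either (0.03 ± 0.05). Cxcr3, a receptor of type 1 effector cells, was at 34.7, 47.5 and 47.8 and 39.7, 46.8 and 33.9 CPM (-0.11 ± 0.11, adjusted p = 0.476), and was called at -0.25 (adjusted p = 0.0164) without animal 67. Cx3cr1 and S1pr5, receptors of effector cells in blood, were at 10.9, 18.8 and 5.0 CPM and 7.2, 12.1 and 3.62 CPM in CD8, against 2.28, 4.82 and 1.55 CPM and 1.29, 1.71 and 0.442 CPM in CD4. Animal 70 was the highest for both genes in both populations. Itgb3, the beta chain of the vitronectin receptor, was at 175, 153 and 146 CPM in CD4 and 29.2, 26.7 and 27.4 CPM in CD8 (-2.50 ± 0.06). Cd44, a marker of activated and memory cells, was at 153, 161 and 182 CPM in CD4 and 78.9, 83.4 and 87.6 CPM in CD8 (-0.99 ± 0.05).

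Genes of T cell receptor signalling differed by small amounts. Of 32 tested, 16 were higher in CD4, 6 higher in CD8 and 10 not called (median -0.16), against 18.1% and 17.1% of all genes. Trat1, an adaptor that stabilises the receptor complex, was at 127, 112 and 114 CPM in CD4 and 30.8, 27.5 and 29.1 CPM in CD8 (-2.01 ± 0.06). Trat1 and Cd5 were the only genes of the 32 that differed by more than 2-fold. Lck, the kinase that binds both coreceptors, was not called, at 417, 375 and 428 and 473, 393 and 435 CPM (0.09 ± 0.05). Zap70 was at 294, 283 and 325 and 264, 254 and 279.6 CPM (-0.18 ± 0.05, adjusted p = 0.0173), and was not called without the animal block (adjusted p = 0.0597) or without animal 70 (adjusted p = 0.163). Themis, which tunes signals in developing T cells, was higher in CD8 (0.50 ± 0.05), as was the phosphatase gene Ptpn22 (0.59 ± 0.05). Nr4a1, an immediate target of receptor signals, was at 423, 569.9 and 562 CPM in CD4 and 173, 267 and 313 CPM in CD8 (-1.07 ± 0.07). Its relative Nr4a3 was at 197, 366 and 329.8 and 85.4, 185 and 191 CPM (-0.99 ± 0.07). In both populations animal 67 had the lowest level of either gene. Of the 18 immediate early and heat shock genes tested, 7 were higher in CD4 and 3 higher in CD8, against 18.1% and 17.1% of all genes. The other 8, among them Fos (0.09 ± 0.05), were not called. Dusp2, a phosphatase that ends MAP kinase signals, went the other way, at 347, 332 and 346 CPM in CD4 and 629, 529 and 605 CPM in CD8 (0.78 ± 0.06).

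Ly6c1 and Ly6c2, neighbouring copies of a surface protein gene of memory and activated cells on chromosome 15, had opposite patterns. Ly6c2 (chr15:75108161-75112066) was at 9.09, 14.2 and 7.92 CPM in CD4 and 257, 262 and 242 CPM in CD8 (4.63 ± 0.11, adjusted p = 5.51e-11). Ly6c1 (chr15:75044018-75048920) was at 42, 41.1 and 40.9 CPM in CD4 and 0.899, 0.426 and 1.23 CPM in CD8 (-5.60 ± 0.18, adjusted p = 5.57e-10). No library of one population overlapped the other for either gene. The longest coding transcripts of the pair share 802 of 822 aligned positions (97.6%), so reads that fit both could have been assigned to either or dropped, and the levels of both are uncertain. Upstream of the genes the sequences are less alike, and the pair is shown for that contrast. It was chosen after its values were seen. Each sequence runs 5′ to 3′ on the strand of the gene and ends at the annotated gene (RefSeq, GRCm38.p6), Ly6c1 at chr15:75048921-75049087, minus strand and Ly6c2 at chr15:75112067-75112221, minus strand. Capitals mark bases that differ from the other gene or lie outside the alignment.
Ly6c1 upstream: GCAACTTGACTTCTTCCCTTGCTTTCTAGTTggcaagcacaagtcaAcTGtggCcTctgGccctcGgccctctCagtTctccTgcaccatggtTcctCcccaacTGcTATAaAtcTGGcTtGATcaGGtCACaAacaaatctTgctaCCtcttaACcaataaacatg
Ly6c2 upstream: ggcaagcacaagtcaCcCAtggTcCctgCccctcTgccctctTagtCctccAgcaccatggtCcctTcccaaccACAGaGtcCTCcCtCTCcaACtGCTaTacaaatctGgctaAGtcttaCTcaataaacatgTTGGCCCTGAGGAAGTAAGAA
They share 99 of 136 aligned columns (72.8%). Their relative Ly6a, encoding Sca-1, was higher in CD4, at 67.3, 82.1 and 78.6 CPM against 19.9, 21.4 and 19 CPM (-1.91 ± 0.07).

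With these 3 genes, 25 interferon response and Ly6 genes were tested, of which 7 were higher in CD8, 7 higher in CD4 and 11 not called (median -0.03). Irf7, a master regulator of interferon genes, was not called, at 79.3, 89.2 and 80.5 and 87.1, 101 and 85.4 CPM (0.13 ± 0.05), but was called in the fit over all 12 spleen libraries (0.14, adjusted p = 0.0391). Oas2 was higher in CD4 (-0.65 ± 0.08) and Oas3 higher in CD8 (0.71 ± 0.09), although the genes are neighbours in 1 cluster. B2m, the light chain of MHC class I, was at 1516, 1388 and 1473 CPM in CD4 and 1842, 1616 and 1659 CPM in CD8 (0.22 ± 0.06, adjusted p = 0.00747). Without animal 70 it was not called (adjusted p = 0.194). Of 15 MHC class I and antigen processing genes tested, 5 were higher in CD8, none higher in CD4 and 10 not called (median 0.12). Nlrc5, the activator of class I genes, was among the former (553, 552 and 533 against 633, 674 and 699 CPM, 0.29 ± 0.06). Levels of the class I and processing genes between H2-K1 and H2-D1 on chromosome 17 are doubtful. Of 82 RefSeq protein-coding genes in that stretch, 79.3% were under 1 CPM in every library, against 47.2% of all 20463. The stretch includes Tap1, Tap2, Psmb8, Psmb9, Tnf, Lta, Ltb and H2-D1, and the class II genes H2-Aa, H2-Ab1 and H2-Eb1.

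Innate-like genes separated as well. Zbtb16, encoding PLZF, the factor of NKT cells, was at 16.1, 18.5 and 16.1 CPM in CD4 and 0.637, 0.426 and 0.423 CPM in CD8 (-5.07 ± 0.20, adjusted p = 2.76e-09). Cd163l1, a scavenger receptor gene expressed by some gamma delta T cells, was at 1.94, 3.3 and 2.73 CPM in CD4 and 25, 26.2 and 29.3 CPM in CD8 (3.34 ± 0.14). The 6 tested genes of that list gave 3 higher in CD4, 1 higher in CD8 and 2 not called, while Tcrg-C1 and Tcrg-C4 were listed at 0 in every library and Sox13 was too low to test. The locus symbol Tcra of the table was at 498, 416 and 389.9 CPM in CD4 and 329, 269.6 and 306 CPM in CD8 (-0.52 ± 0.06, adjusted p = 4.26e-05). Tcrb was at 534, 480.2 and 538 and 565, 526 and 507 CPM and was not called (0.04 ± 0.06). Trac, the alpha constant gene, lies in the same locus as Tcra and had at most 1.36 CPM, and Trbc1 and Trbc2 were listed at 0, so reads of these loci can be divided among symbols. The 0 of Tcrg-C1 and Tcrg-C4 is likewise not read as absence.

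Mki67, a marker of cycling cells, was at 99.1, 92.8 and 97.6 CPM in CD4 and 77.1, 65.5 and 62.7 CPM in CD8 (-0.50 ± 0.06, adjusted p = 6.17e-05). Top2a was at 69.8, 61.1 and 73.8 and 59.6, 55.1 and 53 CPM (-0.29 ± 0.07, adjusted p = 0.00737), and was not called in a fit over all 12 spleen libraries (adjusted p = 0.0735). The replication licensing genes Mcm3 and Mcm7 were higher in CD8 (0.39 ± 0.06 and 0.35 ± 0.05), as was Kif23 (16.1, 19 and 16.2 against 32.2, 31.4 and 32.5 CPM, 0.91 ± 0.09). In all, 9 of 28 cell cycle genes were higher in CD4, 5 higher in CD8 and 14 not called (median -0.21), and the share higher in CD8 is near the 17.1% of all genes tested. Bcl2, the survival factor of resting T cells, was at 266, 292 and 276 CPM in CD4 and 317, 349.6 and 369.6 CPM in CD8 (0.31 ± 0.06). Bcl2l11, encoding its antagonist Bim, differed by 0.25 ± 0.06 and was not called without the animal block (adjusted p = 0.0546). Mcl1 was not called (-0.14 ± 0.05, adjusted p = 0.0617), but was called higher in CD4 by DESeq2, by limma voom, with the 5 CPM filter and in the fit over 12 libraries (adjusted p from 0.0342 to 0.0392). The 15 survival and death genes gave 4 higher in each population and 7 not called (median 0.15). Of all genes tested, 17.1% were higher in CD8 and 18.1% higher in CD4.

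Of 17 glycolysis genes, 4 were higher in CD8, 5 higher in CD4 and 8 not called (median 0.10), against 17.1% and 18.1% of all genes tested, and nothing particular to glycolysis is read from these counts. Slc2a1, the glucose transporter GLUT1, was at 65.4, 72.5 and 73.8 CPM in CD4 and 93.1, 99.1 and 89.9 CPM in CD8 (0.41 ± 0.06). Pkm, pyruvate kinase, was at 653, 665 and 697 and 537, 495 and 501 CPM (-0.40 ± 0.06), and Ldha was not called (-0.09 ± 0.06). Glycosyltransferases were higher in CD4 for 11 of 19 and higher in CD8 for 5 (median -0.37). St8sia6, a sialyltransferase, was at 162, 179.8 and 157 CPM in CD4 and 4.31, 4.53 and 7.31 CPM in CD8 (-4.95 ± 0.13, adjusted p = 9.55e-11). St3gal2, which adds sialic acid to O-glycans and glycolipids, was at 27.9, 25.2 and 25.4 and 2.62, 2.44 and 3.27 CPM (-3.24 ± 0.13). St3gal6 was the opposite, at 21.3, 19.4 and 19 CPM in CD4 and 51.3, 45.3 and 46.6 CPM in CD8 (1.26 ± 0.07). St3gal1, which caps core O-glycans on T cells, was at 237, 233 and 227 and 175, 179 and 185 CPM (-0.37 ± 0.05). Sialyltransferase genes therefore differed in both directions.

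Of 14 S100, galectin and annexin genes, 5 were higher in CD4 and 2 higher in CD8 (median -0.04), against 18.1% and 17.1% of all genes. S100a4, a marker of memory and effector cells, was at 19.1, 27.2 and 26.8 CPM in CD4 and 4.61, 8.48 and 5.35 CPM in CD8 (-2.01 ± 0.13). Ahnak, a scaffold protein, was higher in CD8 (677, 852 and 704 against 944, 1042 and 982 CPM, 0.42 ± 0.06). Of 8 Gimap genes, which encode GTPases of lymphocyte survival, 5 were higher in CD4 and Gimap5 alone higher in CD8 (0.39 ± 0.06). Gimap4 was at 661, 617 and 641 CPM in CD4 and 548, 493 and 483 CPM in CD8 (-0.33 ± 0.05). Cd79b, a B cell receptor subunit, was the only B cell marker higher in CD8, at 3.96, 3.91 and 2.99 CPM in CD4 and 13.8, 12.9 and 11.6 CPM in CD8 (1.82 ± 0.14), whereas its partner Cd79a was at 3.31, 2.77 and 2.95 and 3.45, 4.22 and 2.31 CPM. Itgax, encoding CD11c, was at 3.04, 2.7 and 3.13 CPM in CD4 and 15.7, 23.1 and 10.6 CPM in CD8 (2.41 ± 0.21). The dendritic cell genes Flt3, Xcr1 and H2-Aa were all under 1 CPM. H2-Aa lies in the stretch of chromosome 17 with doubtful levels, so its level is not read as absence. The other tested genes of the dendritic cell and MHC class II list were higher in CD4, as given above.

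Prmt5, the gene deleted in the second genotype, differed between the populations of wild type mice, at 43, 44.3 and 43.7 CPM in CD4 and 67.6, 61.4 and 65.2 CPM in CD8 (0.57 ± 0.06, adjusted p = 2.62e-05). In the knockout libraries it was at 24, 18.9 and 24.2 CPM in CD4 and 35.5, 29.5 and 42.1 CPM in CD8, lower than in all wild type libraries of the same population but well above 0. The gene-level count does not show which exons the reads cover. In those mice the same test called 2419 genes higher in CD8 (17% of 14253 tested) and 2636 higher in CD4 (18.5%). Of 13756 genes tested in both genotypes, 3167 were called in the same direction in both, which is 65% of the wild type calls and 64.5% of the knockout calls. The difference between genotypes was tested as an interaction over 12 libraries with the animal as a block. It called 1083 of 14958 genes (7.24%), of which 672 had a larger CD8 minus CD4 value in the knockout (4.49%) and 411 a smaller value (2.75%). Without the block there were 271 and 112, without animal 68 there were 446 and 194, without animal 72 there were 443 and 159, and without animal 70 the smaller values numbered 234.

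Of 13756 genes tested in both genotypes, 3277 were called in both. For 110 of these the calls were in opposite directions and the interaction was called. Of the 110, 91 were higher in CD4 in wild type mice, so their value was larger in the knockout. Over all interaction calls, 672 values were larger and 411 smaller. Ifng was among the 110. In knockout spleens it was at 17.9, 9.61 and 11 CPM in CD4 and 36, 38.7 and 50.5 CPM in CD8, a log2 difference of 1.71 ± 0.17 (adjusted p = 1.56e-06) against -0.49 ± 0.10 in wild type, with an interaction of 2.21 ± 0.23 (adjusted p = 1.7e-05). Lag3 was at 4.54, 4.61 and 4.23 CPM in CD4 and 12, 7.3 and 8.97 CPM in CD8 of knockout mice, an interaction of 2.72 ± 0.31 (adjusted p = 3.85e-05). The wild type order of Ifng and Lag3, with CD4 above CD8, was therefore not seen in the knockout libraries. Mki67 was at 204, 96.1 and 119 CPM in knockout CD4 and 210.1, 147 and 236 CPM in knockout CD8, which overlapped, with an interaction of 1.04 ± 0.16 that was not called without the block (adjusted p = 0.114). Ikzf2 had the smallest interaction p. Its knockout levels were 189.5, 182 and 157 CPM in CD4 and 118, 133 and 129 CPM in CD8, so that its log2 difference was -0.47 ± 0.06 against -2.27 ± 0.06 in wild type. Serpina3g, a protease inhibitor of T cells, was at 24.3, 16.6 and 23.2 CPM in knockout CD4 and 62.2, 38 and 66.2 CPM in knockout CD8, against 33.2, 27.5 and 31.4 and 11.1, 13.8 and 9.96 CPM in wild type. Among coreceptor genes, Cd8b1 differed by less in the knockout (5.47 ± 0.07, interaction -0.96 ± 0.12, adjusted p = 8.47e-05), and Cd8a was not called in the interaction (-0.35 ± 0.22, adjusted p = 0.432). Cd8b1 was at 15.4, 16.8 and 16.1 CPM in knockout CD4 and 800, 639 and 701 CPM in knockout CD8. Foxp3 and Zbtb7b had the wild type direction but smaller differences in the knockout, with higher levels than wild type in the CD8 libraries. Foxp3 was at 105, 122 and 105 CPM in knockout CD4 and 6.46, 5.18 and 4.13 CPM in knockout CD8. Zbtb7b was at 232, 186 and 212 CPM in knockout CD4 and 11.2, 7.73 and 13.4 CPM in knockout CD8. For Foxp3 the knockout difference was -4.39 ± 0.10 (interaction 1.34 ± 0.25, adjusted p = 0.0034). For Zbtb7b it was -4.29 ± 0.09 (interaction 0.76 ± 0.17, adjusted p = 0.00965), and that interaction was not called by DESeq2 (adjusted p = 0.0801) or without the block (0.0997). Nkg7 and Eomes also had the wild type direction (3.84 ± 0.11 and 2.56 ± 0.08), and their interactions were not called (adjusted p = 0.0725 and 0.71).

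**Figure D5:**
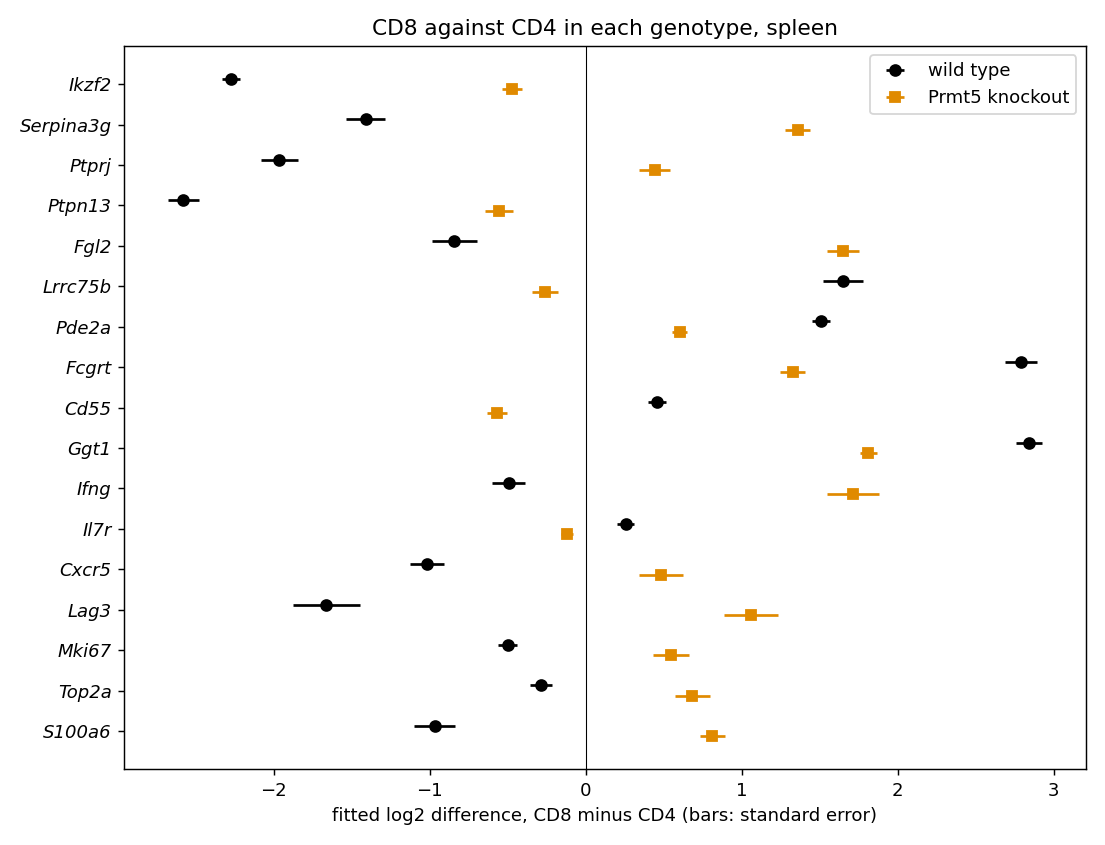
Fitted log2 difference (CD8 minus CD4, with its standard error) in wild type and in Prmt5 knockout spleen for 17 of the genes whose difference between genotypes was called. Ifng, Lag3, Cxcr5, Mki67, Top2a and S100a6 lie below 0 in wild type and above 0 in the knockout, and Ikzf2 and Ptpn13 stay below 0 in both.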

How the data were processed

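Bulk RNA sequencing of sorted spleen T cells was analysed in 6 wild type libraries, and in 6 further Prmt5 knockout libraries for the test of the difference between genotypes. The authors deposited raw counts per gene. Per the submitters' processing notes, HISAT2, HTSeq and GRCm38 were used, and those notes state no versions, gene annotation or strand mode. Wild type libraries held 26007799 to 27192847 counts, so 3 counts correspond to 0.110 to 0.115 CPM. Counts were filtered and scaled by TMM, and tested in edgeR 4.0.16 (quasi-likelihood, R 4.3.3) with the animal as a block and Benjamini-Hochberg adjustment. CPM uses those scaled library sizes. Same-numbered libraries carry the same animal number in their labels, and their deviations from the group means correlated at 0.115, 0.177 and 0.116, against -0.113 to -0.00157 for different animals. Deviations cancel out within each group for every gene, so these correlations are not independent of each other. The pairing rests on the labels. Nothing says more of the animals' housing or litters. Named genes were Cd4, Cd8a and Cd8b1, the 12 largest folds per direction with at least 5 CPM and no overlap, the 6 smallest p per direction with at least 50 CPM, the key members of each of 30 lists and the 4 members of each with the smallest p; for the difference between genotypes, 5 per direction. Other list members were named after their values were seen. The members and lists were chosen with earlier results of these data known, so counts over lists are descriptions. Sequences are from RefSeq (GRCm38.p6). Alternatives were DESeq2 1.42.0, its size factors, limma 3.58.1 voom, other filters, a test against 2-fold, no block, all 12 libraries, and leaving out each animal. The script was tested on simulated data. Some named genes are not reported here.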

Additional observations from a re-analysis of the deposited data

Results flagged for a closer look

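The difference between CD8 and CD4 cells itself differed between genotypes for 86 of 196 named genes tested. The test was edgeR's quasi-likelihood interaction test with Benjamini-Hochberg adjustment over 14958 genes (7.24% called). Some of the 196 were chosen by that test, and others by fold or p in the wild type libraries that it also uses. Their share called is therefore not comparable with that of all genes. Given here are 20 of the 86: the 5 smallest p in each direction, key list members called in opposite directions, and others described above. Values are log2, knockout minus wild type. Of the genes with the smallest p for a larger value in the knockout, Ikzf2 had 1.80, Serpina3g 2.76, the phosphatase genes Ptprj 2.40 and Ptpn13 2.02, and Fgl2, which encodes a secreted suppressive protein, 2.49. Ptprj was at -1.96 in wild type and 0.44 in the knockout, and Fgl2 at -0.84 and 1.65. Of those with a smaller value, Lrrc75b had -1.92, Pde2a -0.91, Fcgrt -1.47, Cd55 -1.03 and Ggt1 -1.03. Lrrc75b and Cd55, which protects cells from complement, were higher in CD8 in wild type (1.65 and 0.46) and higher in CD4 in the knockout (-0.26 and -0.57). Among members of the gene lists, Ifng had 2.21, Il7r -0.38, Cxcr5 1.5, Lag3 2.72, Mki67 1.04, Top2a 0.96 and S100a6, a calcium-binding protein, 1.77. Cxcr5 was at -1.02 in wild type and 0.48 in the knockout (adjusted p = 0.0161), and S100a6 at -0.97 and 0.81. Cd8b1 had -0.96, Zbtb7b 0.76 and Foxp3 1.34. The genotypes come from different animals, so genotype and animal differences other than Prmt5 cannot be told apart.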

How the results depend on the processing

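Against a 2-fold threshold, 210 genes were higher in CD8 and 581 in CD4. Without the replicate block pairing the animals, the wild type counts were 2166 and 2336, and the difference between genotypes was called for 271 and 112 genes. Leaving out 1 animal gave 1741 to 2519 genes higher in CD8 and 2048 to 2654 higher in CD4, and 443 to 678 larger and 159 to 416 smaller values in the knockout. The knockout minus wild type value of Cd4 was -0.97 with all animals (adjusted p = 0.369), ran from -1.43 to 0.53 when 1 animal was left out, and was 0.53 without animal 71 (adjusted p = 0.0454). With no filter on low counts it was -0.97 and called (adjusted p = 4.91e-13). Adjusted p-values without that filter were far smaller also for Gzmk (3.94e-06 against 0.0476), although the counts of called genes rose only to 2629 and 2788. DESeq2 called 1767 and 2139. Of 184 named wild type genes, 165 kept their call under those alternatives, other than the 2-fold test, in which they could be tested. The 5 CPM filter was passed by 166 of the 184. Changes of sign were counted only for genes called in the main fit or in the alternative, and 0 were found. For genes called in neither fit, the sign was not compared. Without the block, the genotype differences of Il7r, Mki67 and Top2a were not called (adjusted p = 0.118, 0.114 and 0.0916). The causes of these changes were not tested. Levels under 0.115 CPM rest on 3 counts or fewer, and with 3 animals a group small differences can be missed.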

Other observations

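Between H2-K1 and H2-D1 on chromosome 17 (chr17:33996012-35267497, GRCm38.p6), a region examined after its values were seen, 34 of 82 RefSeq protein-coding genes in the table were at 0 in all 6 libraries (41.5%, against 28.6% of all 20463). Only 3 reached 10 CPM in any library (3.66%, against 40.4%). Widely expressed genes of the region such as Csnk2b, Bag6, Prrc2a and Clic1 were listed at 0, and Ddx39b reached 0.152 CPM at most. H2-D1, a classical MHC class I gene, reached 0.114 CPM at most, while H2-K1 had a mean of 74.4 CPM. Tnf, Lta and Ltb, cytokine genes of T cells, lie in the region and were listed at 0. Their levels in these cells are therefore not read from this table.
Il21 and Sostdc1, which were among the largest differences in wild type spleen, were too low to test in the knockout libraries.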
